A study of Homo sapiens with 5 samples.

Results

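Cholesterol and fatty acid synthesis was followed through 34 genes, all of which were found by symbol among the 26364 gene symbols of 5 libraries from SH-SY5Y, a human neuroblastoma cell line of noradrenergic character. They comprise 7 genes of the mevalonate steps, 11 of the squalene and sterol steps, 5 that control the transcription factors of the pathway (SREBP), 1 cytosolic sterol carrier, 8 of fatty acid synthesis and 2 of sterol efflux. The members are a list of symbols, set up by role in the pathway with earlier results of these data known. The study compared cells labelled Differentiation with cells labelled Nondifferentiation, and cells given an siRNA against STAU1 (siSTAU1) or UPF1 (siUPF1) with cells given a control siRNA (siControl), to look for transcripts higher after each. STAU1 and UPF1 act together in Staufen-mediated mRNA decay. Each group was 1 library of the same line, grown with 10% serum and 1% antibiotics, and no library carries any genetic change in its label. Retinoic acid at 50 uM is listed in the medium of both Differentiation and Nondifferentiation and of none of the siRNA libraries. CYP26A1, which degrades retinoic acid and is induced by it, stood at a log2 value of 14.38 in Differentiation, while Nondifferentiation had it listed at 0, which goes against the retinoic acid listed for Nondifferentiation.

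Cells make cholesterol from acetyl-CoA through mevalonate, farnesyl diphosphate, squalene and lanosterol, and make fatty acids from the same acetyl-CoA. When membrane sterol is low, SCAP escorts SREBP proteins from the endoplasmic reticulum to the Golgi, where they are cut and released as transcription factors that raise most genes of both pathways. INSIG proteins hold SCAP back when sterol is plentiful, and oxysterols then activate the receptor LXR, which raises efflux pumps such as ABCA1. Neurons rely on cholesterol for axon growth and synapses.

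The values are deposited log2 values of QuantSeq libraries, which tag RNA ends, on a scale shared by the 5 libraries, and a fold is the difference of 2 such values. Depth was estimated at about 28800000 reads in Differentiation, against 18900000 in Nondifferentiation, and between 16500000 and 18500000 in the siRNA libraries. A counting SE beside a fold comes from these estimates and covers counting error only. With 1 library per group there is no replicate check and no p-value, so genes are counted as higher or lower when 2 libraries differed by at least 2-fold. Genes entered a comparison (were measured) where either library reached a floor, the median of the nonzero values of that pair. STAU1 stood at 11.34 in siSTAU1 against 12.87 in siControl, and UPF1 at 9.20 in siUPF1 against 10.74 in siControl. The noradrenergic markers were present in every library, with 0 of 8 at 0. ISL1, DBH and TH were lower in Differentiation against Nondifferentiation, and the other 5 passed 2-fold in neither direction. DBH at -1.12 and TH at -2.13 were also lower in siControl against Nondifferentiation, and the other 6 passed 2-fold in neither direction. TH reached the floor only through Nondifferentiation in both pairs, so it could enter only on the lower side. In bulk RNA, fewer cells of a type and less RNA per cell cannot be told apart.

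Most of the synthesis genes were lower in Differentiation than in Nondifferentiation. Of 34 members 30 were measured, and 26 of the 30 lay below 0, where 49.1% of all measured genes did. SCD, ACAT2 and ELOVL6 were the lowest, and 9 members were counted as lower, while a 2-fold lower value was reached by 10.9% of all 9064 measured genes. TM7SF2 alone among the members was counted as higher, where 10.4% of all measured genes were. The median log2 fold of the measured members was -0.83, with quartiles of -1.08 and -0.45. Over all measured genes the median was 0.02, with quartiles of -0.50 and 0.50, and 22 of the 30 members lay below that lower quartile. The count of 9 depends on where the threshold stands. HMGCS1 lay just past it at -1.01, while ACLY and INSIG1 lay just short of it, both at -0.99, as did MSMO1 at -0.98. At a threshold of 1.5-fold 22 members were lower, where 21.7% of all measured genes were, and TM7SF2 was the 1 higher member, where 21.8% were. At 3-fold SCD was the 1 lower member, where 4.7% of all measured genes were. PMVK, MVD and IDI1 reached the floor of 7.76 only through their Nondifferentiation value, so they could enter only on the lower side. HSD17B7, INSIG2, ABCA1 and ABCG1 were not measured in this pair.

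**Figure D1:**
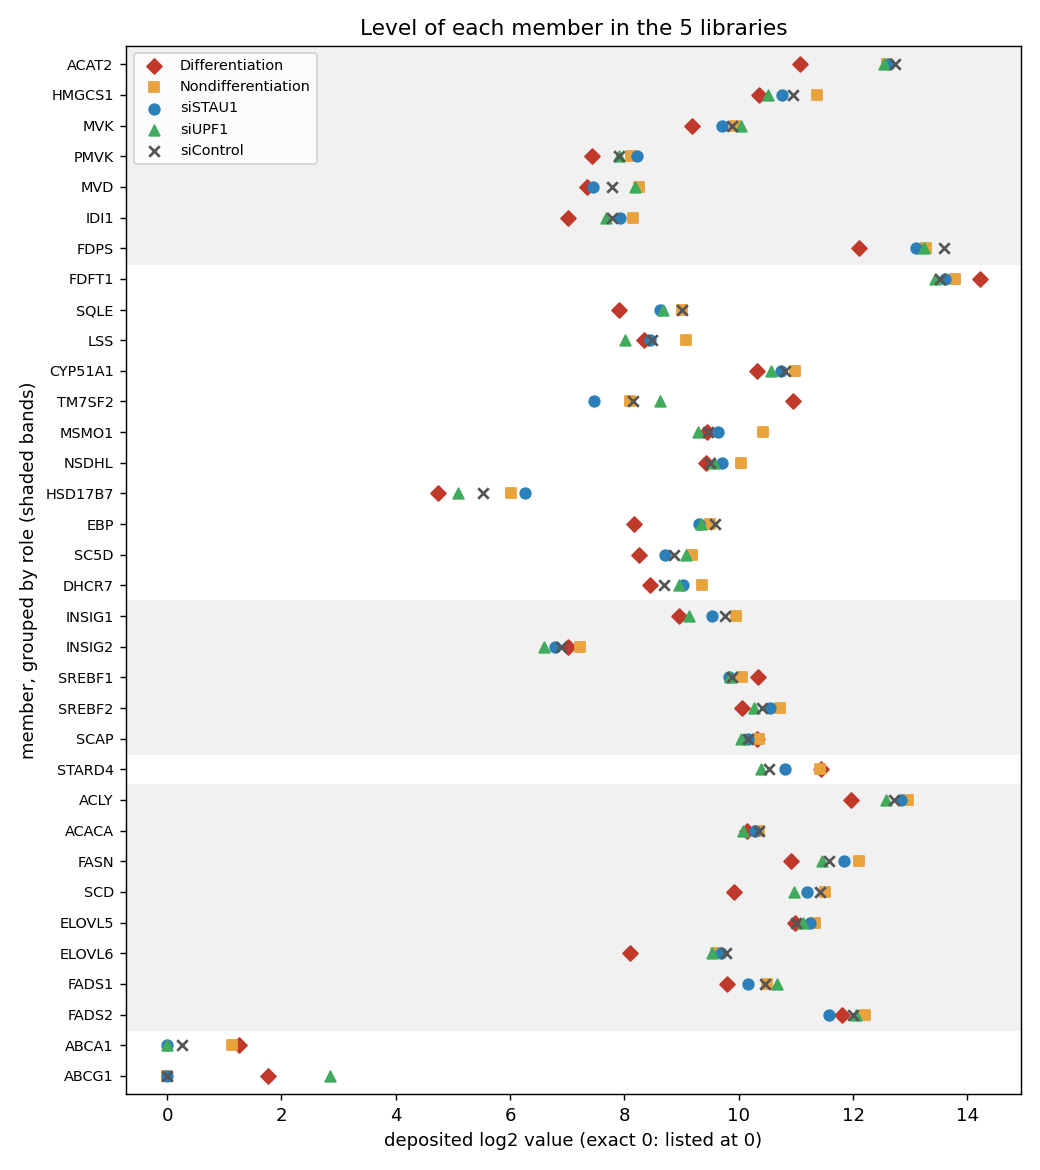
Deposited log2 value of each of the 34 members (x axis) in Differentiation, Nondifferentiation, siSTAU1, siUPF1 and siControl, with members grouped by role in shaded and white bands and 1 point per library. Differentiation is the lowest point for 21 of the 30 members that reach the floor in any library, TM7SF2 is far to the right in Differentiation at 10.95, and ABCA1 and ABCG1 lie near 0.

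**Figure D2:**
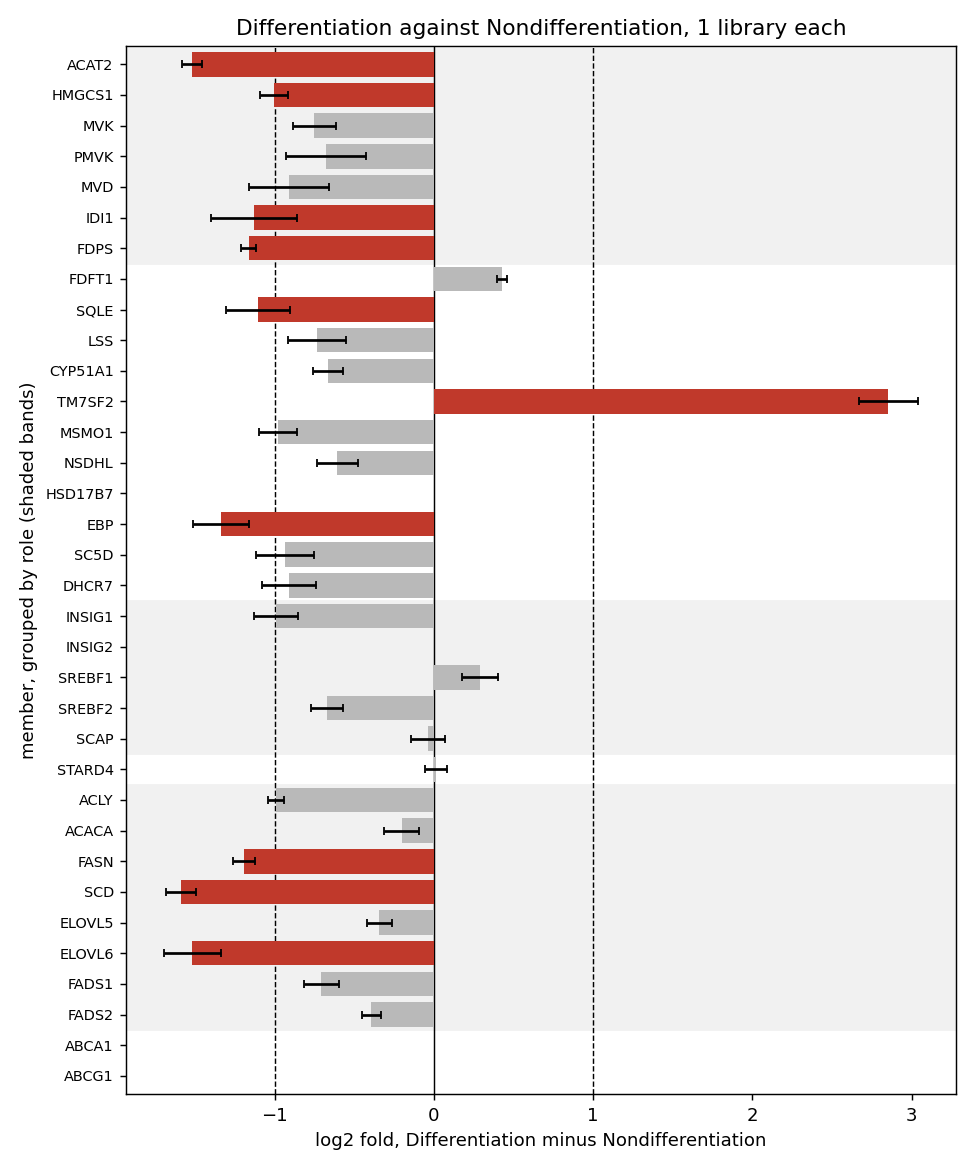
Log2 fold of the 30 measured members, Differentiation minus Nondifferentiation (1 library each), by role, with error bars of 2 counting SE and dashed lines at 2-fold. Red bars pass 2-fold (9 lower, 1 higher), grey bars do not, and members without a bar were not measured.

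All 7 mevalonate genes were lower in Differentiation by at least 1.5-fold, where 21.7% of all measured genes were. Of the 7, 4 were lower by at least 2-fold, where 10.9% of all measured genes were. PMVK, MVD and IDI1 among the 7 reached the floor only through Nondifferentiation, so they could enter only on the lower side. ACAT2, the cytosolic thiolase that joins acetyl-CoA units, had 11.07 in Differentiation against 12.59 in Nondifferentiation, and 12.63 in siSTAU1, 12.54 in siUPF1 and 12.74 in siControl. The 4 libraries other than Differentiation lay within 0.20 of each other, and the log2 fold was -1.52 (counting SE 0.032), which is 2.87-fold lower. HMGCS1, the synthase of the next step, had 10.36 in Differentiation against 11.37 in Nondifferentiation, and 10.77 in siSTAU1, 10.52 in siUPF1 and 10.94 in siControl. Its log2 fold was -1.01 (counting SE 0.043), but its other 4 libraries spread over 0.85 and siUPF1 came close to Differentiation. IDI1, which isomerises isopentenyl diphosphate, had 7.02 in Differentiation against 8.15 in Nondifferentiation, and 7.92 in siSTAU1, 7.69 in siUPF1 and 7.78 in siControl. FDPS, which builds farnesyl diphosphate, had 12.11 in Differentiation against 13.27 in Nondifferentiation, and 13.11 in siSTAU1, 13.25 in siUPF1 and 13.59 in siControl. For both genes Differentiation lay below all the other libraries by more than those differed among themselves, with log2 folds of -1.13 for IDI1 and -1.16 for FDPS. PMVK, the phosphomevalonate kinase, was the least changed of the 7, at 7.43 in Differentiation against 8.11 in Nondifferentiation, and 8.23 in siSTAU1, 7.91 in siUPF1 and 7.91 in siControl. The mevalonate kinase MVK had -0.75 and the decarboxylase MVD had -0.91.

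The ends of some of these genes lie on those of others, and whether the counting kept the strands apart is not stated in the labels. In the GENCODE 29 annotation, used for names only, another gene overlaps the last 500 bases of 8 members. TCP1, a chaperonin subunit at the end of ACAT2, had 11.40 in Differentiation against 12.76 in Nondifferentiation, a log2 fold of -1.37. RUSC1-AS1, at the end of FDPS, had 9.73 in Differentiation against 10.95 in Nondifferentiation, a log2 fold of -1.22. Reads of these pairs could be shared, so the values of ACAT2 and FDPS are uncertain, and FDPS also has 8 annotated pseudogenes. Among the 22 measured members without such a neighbour 5 were lower and 1 was higher, and their median was again -0.83. Of all measured genes 10.9% were lower and 10.4% were higher. ACAT2, FDPS, HMGCS1 and IDI1 all have such a neighbour, so no mevalonate gene counted as lower remained among the 22. The neighbour of HMGCS1, AC114947.2, is not among the gene symbols of the libraries. That of IDI1, IDI2-AS1, had only 1.26 in Differentiation and 2.14 in Nondifferentiation, where IDI1 had 7.02 and 8.15.

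The squalene and sterol steps held both lower genes and the 1 higher gene. Of 11 members 10 were measured, and 8 of these lay below 0, where 49.1% of all measured genes did. Of the 10, 2 were counted as lower and 1 as higher, where 10.9% and 10.4% of all measured genes were. SQLE, the epoxidase that opens the sterol-specific steps, had 7.90 in Differentiation against 9.01 in Nondifferentiation, and 8.63 in siSTAU1, 8.67 in siUPF1 and 9.01 in siControl. EBP, a sterol isomerase, had 8.16 in Differentiation against 9.50 in Nondifferentiation, and 9.31 in siSTAU1, 9.35 in siUPF1 and 9.58 in siControl. Differentiation lay apart from the 4 other libraries for both, with log2 folds of -1.10 (counting SE 0.10) for SQLE and -1.34 (counting SE 0.089) for EBP. The methylsterol oxidase MSMO1 had -0.98, the desaturase SC5D -0.94, the last reductase of the pathway DHCR7 -0.91, the lanosterol synthase LSS -0.73, the demethylase CYP51A1 -0.67 and the dehydrogenase NSDHL -0.61. FDFT1, the squalene synthase that commits farnesyl units to sterols, went the other way, with 14.22 in Differentiation against 13.79 in Nondifferentiation, a log2 fold of 0.43. HSD17B7, a ketosteroid reductase, stayed under the floor in all 5 libraries, between 4.74 in Differentiation and 6.27 in siSTAU1, and has an annotated pseudogene, HSD17B7P2.

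TM7SF2 was the exception of the pathway. It encodes a reductase of the sterol ring that acts on the product of CYP51A1. It had 10.95 in Differentiation against 8.09 in Nondifferentiation, and 7.47 in siSTAU1, 8.62 in siUPF1 and 8.16 in siControl. Differentiation lay above all the other libraries, which spread over 1.15 among themselves, and the log2 fold was 2.85 (counting SE 0.093), which is 7.23-fold higher and rank 98 from the top of 9064 measured genes. VPS51, which overlaps TM7SF2 on the same strand away from its end, had 9.95 in Differentiation against 9.99 in Nondifferentiation. LBR, the lamin B receptor, carries out the same reduction and is not on the list, and it was looked up after the value of TM7SF2 was seen. LBR had 10.36 in Differentiation against 11.52 in Nondifferentiation, a log2 fold of -1.16. The pair of reductases thus differed in direction between these libraries.

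**Figure D3:**
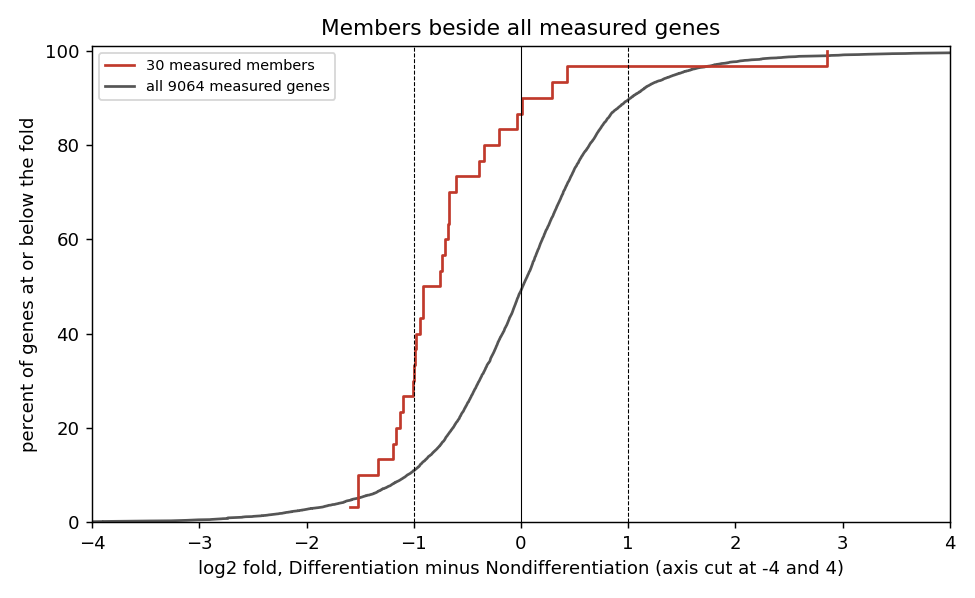
Cumulative percent of the 30 measured members (red) and of all 9064 measured genes (grey) at or below each log2 fold, Differentiation minus Nondifferentiation, with dashed lines at 2-fold and the axis ending at 4 on either side. Between the dashed lines the members' curve lies above that of all genes, with a median of -0.83 against 0.02, and its last step is TM7SF2 at 2.85.

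Among the genes that control SREBP none of the 4 measured members passed 2-fold. INSIG1, which retains SCAP and is itself raised by SREBP, had 8.96 in Differentiation against 9.96 in Nondifferentiation, and 9.54 in siSTAU1, 9.12 in siUPF1 and 9.76 in siControl. Differentiation and siUPF1 were the low libraries, and the log2 fold of Differentiation was -0.99 (counting SE 0.071). SREBF1, which encodes the SREBP best known for fatty acid genes, had 10.34 in Differentiation against 10.05 in Nondifferentiation, and 9.83 in siSTAU1, 9.84 in siUPF1 and 9.88 in siControl. Its log2 fold was 0.29, and RAI1 overlaps its end. SREBF2, which encodes the SREBP best known for sterol genes, had -0.67, and SCAP had -0.04. INSIG2, the paralogue of INSIG1, lay under the floor at 7.01 in Differentiation and 7.23 in Nondifferentiation. STARD4, a carrier that moves sterol between membranes, had 11.43 in Differentiation against 11.42 in Nondifferentiation, and 10.81 in siSTAU1, 10.39 in siUPF1 and 10.52 in siControl. The siRNA libraries were thus the low ones for STARD4, and the differentiation pair was level.

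All 8 fatty acid synthesis genes lay below 0 in Differentiation, where 49.1% of all measured genes did. Of the 8, 3 were counted as lower, where 10.9% of all measured genes were. SCD, the desaturase that makes oleate, had 9.92 in Differentiation against 11.51 in Nondifferentiation, and 11.20 in siSTAU1, 10.98 in siUPF1 and 11.42 in siControl. Its log2 fold of -1.59 (counting SE 0.047), which is 3.01-fold lower, was the lowest of all members. ELOVL6, which elongates palmitate, had 8.09 in Differentiation against 9.61 in Nondifferentiation, and 9.70 in siSTAU1, 9.53 in siUPF1 and 9.77 in siControl. FASN, the fatty acid synthase, had 10.92 in Differentiation against 12.11 in Nondifferentiation, and 11.85 in siSTAU1, 11.45 in siUPF1 and 11.57 in siControl. Differentiation was the lowest library for all 3, with log2 folds of -1.52 for ELOVL6 and -1.19 for FASN, although for FASN the 4 other libraries spread over 0.66. ACLY, which releases acetyl-CoA from citrate, had -0.99. ACACA, the carboxylase that makes malonyl-CoA, was nearly level, with 10.15 in Differentiation against 10.35 in Nondifferentiation, and 10.29 in siSTAU1, 10.07 in siUPF1 and 10.36 in siControl. The genes that act on polyunsaturated chains were less low than SCD and ELOVL6, with -0.71 for the desaturase FADS1, -0.39 for the desaturase FADS2 and -0.34 for the elongase ELOVL5. FADS1 and FADS2 overlap in the annotation.

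The efflux pumps ABCA1 and ABCG1, textbook targets of LXR, were hardly detected. ABCA1 had 1.26 in Differentiation against 1.14 in Nondifferentiation, and it was listed at 0 in siSTAU1 and siUPF1, against 0.26 in siControl. ABCG1 had 1.77 in Differentiation and 2.85 in siUPF1 and was listed at 0 in the other libraries. These values come from a handful of reads at most, and no fold is given.

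The promoters of 29 of the 34 members were found in the RefSeq table of build GRCh38.p14, each as 250 bases before to 50 after the start. They were searched on both strands for motifs of SREBP, of factors that act with it and of LXR. CCAAT, the box bound by NFY, was in 18 of 29 member promoters (62.1%) and in 34.6% of 35116 promoters of the same length. GGGCGG, the GC box, was in 89.7% against 45.0%, and the E-box CACGTG was in 20.7% against 7.26%. TCACNCCAC, the core of the sterol element, was in 1 of 29 (3.45%) against 1.13%, and its shortened form CACCCCAC, which overlaps the core, was in 2 of 29 (6.90%) against 2.79%. The direct repeat bound by LXR was in 0 of 29 and in 7 of all promoters. The base composition of the promoters was not matched, and the 35116 promoters were not limited to measured genes. The 17 measured members with a CCAAT box had a median log2 fold of -0.91, and the 9 without had -0.67. Of the 17 with a box 4 were lower, and of the 9 without 2 were, a similar share. Among all measured genes 10.9% were lower. No promoter was found for ACAT2, SQLE and FASN, all counted as lower, nor for FDFT1 and ABCG1, so this split leaves them out. The part of the box in the folds was not tested. The promoters below are those of HMGCS1 and EBP, counted as lower, of SREBF2, the member with the sterol core, and of TM7SF2, counted as higher, each on the strand of its gene with CCAAT boxes (ATTGG when read on the other strand) and the sterol core in capitals.
HMGCS1 (chr5:43313363-43313662, - strand): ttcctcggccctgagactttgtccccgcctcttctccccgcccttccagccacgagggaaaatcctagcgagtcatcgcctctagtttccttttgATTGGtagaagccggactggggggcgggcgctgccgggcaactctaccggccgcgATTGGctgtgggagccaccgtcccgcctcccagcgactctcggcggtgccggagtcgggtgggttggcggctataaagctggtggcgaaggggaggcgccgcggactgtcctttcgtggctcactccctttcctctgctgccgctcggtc
EBP (chrX:48521558-48521857, + strand): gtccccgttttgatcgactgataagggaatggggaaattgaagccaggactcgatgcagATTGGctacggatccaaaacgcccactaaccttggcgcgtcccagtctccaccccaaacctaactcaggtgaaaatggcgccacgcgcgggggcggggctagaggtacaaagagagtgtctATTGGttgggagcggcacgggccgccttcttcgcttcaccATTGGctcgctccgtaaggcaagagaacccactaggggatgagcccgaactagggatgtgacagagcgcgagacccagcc
SREBF2 (chr22:41832855-41833154, + strand): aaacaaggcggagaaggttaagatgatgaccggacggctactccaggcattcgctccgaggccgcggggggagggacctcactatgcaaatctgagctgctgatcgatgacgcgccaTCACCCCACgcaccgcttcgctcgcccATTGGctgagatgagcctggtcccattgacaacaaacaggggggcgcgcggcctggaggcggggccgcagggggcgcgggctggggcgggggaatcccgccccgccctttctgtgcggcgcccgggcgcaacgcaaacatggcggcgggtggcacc
TM7SF2 (chr11:65111622-65111921, + strand): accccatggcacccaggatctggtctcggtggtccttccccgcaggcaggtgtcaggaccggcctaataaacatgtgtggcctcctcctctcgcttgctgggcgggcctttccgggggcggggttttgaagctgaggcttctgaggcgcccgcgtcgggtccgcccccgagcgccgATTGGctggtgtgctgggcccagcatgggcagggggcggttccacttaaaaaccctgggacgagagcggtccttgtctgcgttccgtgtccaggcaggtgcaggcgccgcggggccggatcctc
TM7SF2 carries a CCAAT box as HMGCS1 and EBP do, although it differed from them in direction between these libraries.

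In the knockdown libraries no member passed 2-fold against siControl, and few of all measured genes did. In siSTAU1 29 members were measured, 0 passed 2-fold, and the background was 0.0946% higher and 0.106% lower among 8454 measured genes. The median of the members was -0.07 beside 0.01 for all measured genes, and 18 of the 29 lay below 0, where 48.9% of all measured genes did. TM7SF2 had the lowest fold in siSTAU1, -0.69 (counting SE 0.15), followed by FDPS at -0.48, FADS2 at -0.42 and SQLE at -0.38. DHCR7 at 0.33 and PMVK at 0.32 were the highest. In siUPF1 29 members were measured, 0 passed 2-fold, and the background was 0.401% higher and 0.142% lower among 8475 measured genes. The median was -0.13 beside -0.01 for all measured genes, and 19 of the 29 lay below 0, where 51.8% of all measured genes did. INSIG1 was lowest at -0.63 (counting SE 0.081), followed by LSS at -0.49, SCD at -0.45 and HMGCS1 at -0.43, and TM7SF2 was highest at 0.46 with MVD at 0.41. At 1.5-fold 1 member was lower in each library, TM7SF2 in siSTAU1, where 1.29% of all measured genes were lower, and INSIG1 in siUPF1, where 1.56% were. TM7SF2 reached the floor of 7.84 only through siControl there, so it could enter only on the lower side, and MVD reached it only through siUPF1, so it could enter only on the higher side.

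**Figure D4:**
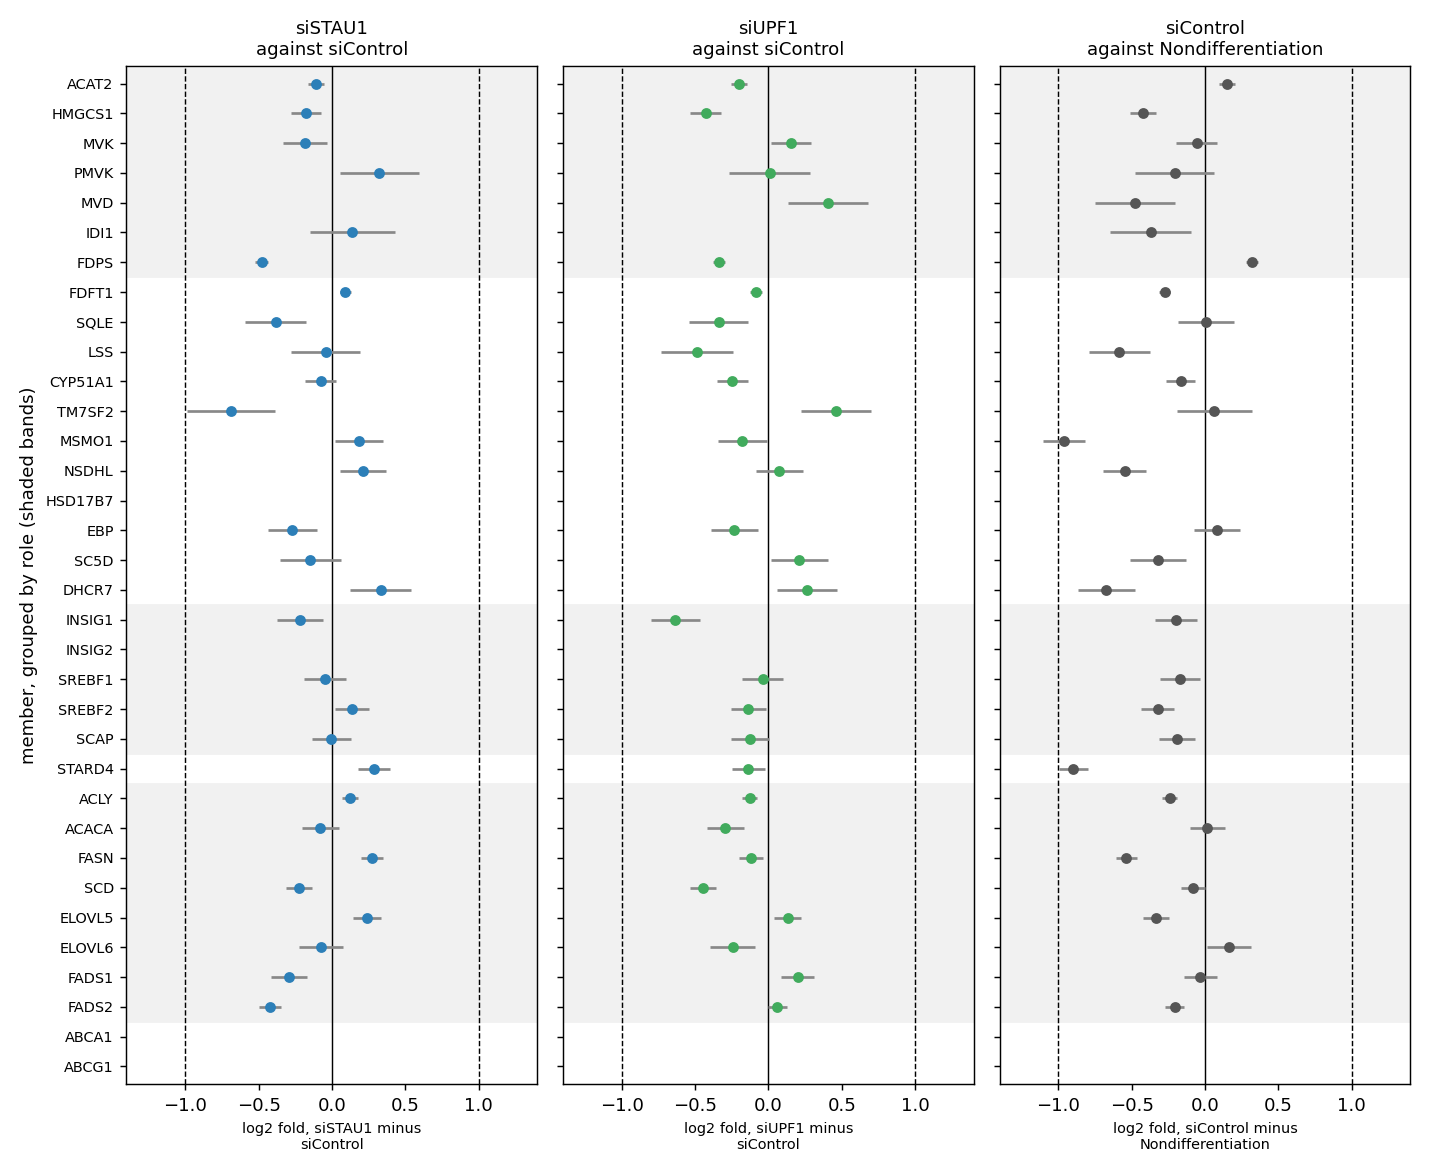
Log2 folds of the measured members in siSTAU1 against siControl, siUPF1 against siControl and siControl against Nondifferentiation (1 library each), by role, with lines of 2 counting SE and dashed lines at 2-fold. No member passes 2-fold in these 3 panels, and MSMO1 at -0.96 and STARD4 at -0.90 come closest, in siControl against Nondifferentiation.

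Set directly against each other, siUPF1 and siSTAU1 differed by 2-fold in TM7SF2 only, of 30 measured members. TM7SF2 had 8.62 in siUPF1 against 7.47 in siSTAU1, a log2 fold of 1.15 (counting SE 0.14), where 0.554% of 8486 measured genes were 2-fold higher and 0.283% were 2-fold lower. At 1.5-fold 2 members were higher, TM7SF2 and MVD at 0.73, where 3.62% of all measured genes were, and at 3-fold 0 were, where 0.0471% were. TM7SF2 and MVD both reached the floor of 7.84 only through siUPF1, so they could enter only on the higher side. FADS1 and FADS2 both had 0.49, and LSS was lowest at -0.45. The median of the members was -0.15 beside -0.02 for all measured genes. Some markers of other cells differed between these libraries. The summed linear level of 10 epithelial markers was 1099.6 in siSTAU1 and 605 in siUPF1, against 637 in siControl. All 10 were above 0 in siSTAU1, while siUPF1 and siControl each had 4 listed at 0. Only CLDN7 of the 10 reached the floor, with 8.96 in siSTAU1, 8.91 in siUPF1 and 9.16 in siControl. The higher sum in siSTAU1 thus came from genes under the floor. The summed level of 10 hepatocyte markers was 153.6 in siSTAU1, 524.4 in siUPF1 and 92.0 in siControl, mostly from ALB. Of these 10, 6 in siSTAU1, 7 in siUPF1 and 7 in siControl were listed at 0. The summed level of 7 mesenchymal markers was 1372 in siSTAU1 and 2254 in siUPF1, against 1524 in siControl, with none at 0. TAGLN, a smooth muscle marker among them, had 6.27 in siSTAU1 and 9.41 in siUPF1, against 7.90 in siControl, and so lay on opposite sides of siControl as TM7SF2 did. Between siUPF1 and siSTAU1 TAGLN differed by 3.15, ACTA2 by 1.61 and LUM by -1.05. Their part in the differences of the members was not tested.

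Nondifferentiation stood high in this pathway beside the siRNA libraries too. It was the highest of the 5 libraries for 17 of the 30 members that reached the floor in any library (56.7%), as it was for 14.1% of all 9217 such genes. Differentiation was the lowest for 21 members (70.0%) and for 40.4% of all such genes. In siControl against Nondifferentiation, 30 members were measured and 23 lay below 0, where 49.0% of all measured genes did. The median of the members was -0.21 beside 0.00 for all measured genes. MVD and IDI1 reached the floor of 7.81 only through Nondifferentiation, so they could enter only on the lower side. None passed 2-fold, where 0.222% of 8547 genes were higher and 0.573% were lower, but MSMO1 at -0.96, STARD4 at -0.90, DHCR7 at -0.67 and LSS at -0.59 were lower by at least 1.5-fold, where 3.21% of all genes were. The noradrenergic markers DBH and TH were lower in siControl as well, as given above, while the other 6 of 8 passed 2-fold in neither direction. All 8 summed to a linear level of 54399 in siControl against 54394 in Nondifferentiation. The part of these markers in the differences of the members was not tested. Transfection and whatever else differed between these cultures cannot be told apart. With Nondifferentiation in place of siControl, siUPF1 had 3 lower members, MSMO1 at -1.14, LSS at -1.07 and STARD4 at -1.03, where 0.829% of 8563 genes were lower. These comparisons share the Nondifferentiation library.

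Differentiation was therefore also set against siControl. Of 28 measured members 6 were then lower, and the median was -0.49, closer to 0 than the -0.83 against Nondifferentiation, while 12.3% of 9032 measured genes were lower. The 6 were ELOVL6 at -1.68, ACAT2 at -1.67, SCD at -1.51, FDPS at -1.48, EBP at -1.42 and SQLE at -1.11, each of which was also lower against Nondifferentiation. HMGCS1 had -0.58 and FASN -0.66 against siControl, under 2-fold, and IDI1 was not measured, with 7.02 in Differentiation against 7.78 in siControl. At 1.5-fold 12 of the 28 were lower, where 23.7% of all measured genes were, and 3 were higher, where 23.4% were, beside 22 of 30 lower against Nondifferentiation. MSMO1 had -0.02, NSDHL -0.06 and LSS -0.15, so these 3 were nearly level with siControl. TM7SF2 was higher with this reference too, at 2.79, where 11.6% of genes were higher. STARD4 had 0.91.

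Genes around the pathway were counted in the same way. In Differentiation against Nondifferentiation, 7 further lists with 83 genes had 57 measured, of which 6 (10.5%) were higher and 1 (1.75%) was lower, where 10.4% of all measured genes were higher and 10.9% were lower. The share of higher genes was thus at the background. Among 15 genes of fatty acid oxidation 13 were measured and 3 were higher, with a median of 0.10. CPT1A, which admits fatty acids to mitochondria, had 11.27 in Differentiation against 10.13 in Nondifferentiation. ACADVL, a dehydrogenase of long chains, had 11.49 in Differentiation against 9.88 in Nondifferentiation, and PPARA, a receptor that raises oxidation genes, had 10.08 in Differentiation against 8.52 in Nondifferentiation. These 3 are named because they passed 2-fold, and the other 10 measured genes of oxidation did so in neither direction. Of 7 genes of the LXR list 3 were measured, and NR1H3, which encodes LXR alpha, had 8.45 in Differentiation against 6.69 in Nondifferentiation, while LPCAT3, an LXR target that remodels phospholipids, had 8.06 in Differentiation against 6.92 in Nondifferentiation. ACSS2, which makes acetyl-CoA from acetate, was the only gene past 2-fold among 10 measured of the list of fatty acid supply, elongation and activation, with 7.90 in Differentiation against 6.82 in Nondifferentiation. NR1H3, LPCAT3 and ACSS2 reached the floor only through Differentiation, so they could enter only on the higher side. In the isoprenoid branch 1 of 6 measured genes was lower, RABGGTB, a subunit of the enzyme that prenylates Rab proteins, with 8.38 in Differentiation against 10.43 in Nondifferentiation. The lists of SREBP processing, of sterol trafficking and storage, and of triglycerides and droplets had 0 members past 2-fold, with medians of 0.06, 0.11 and 0.04. In siSTAU1 and siUPF1 against siControl 0 genes of the 7 lists passed 2-fold, of 52 and 53 measured. The 7 mesenchymal markers summed to a linear level of 3773 in Differentiation against 1439 in Nondifferentiation, with 0 of 7 at 0 in both. Without COL3A1 the other 6 summed to 537 in Differentiation against 845 in Nondifferentiation, and TAGLN was lower at -1.65. Noradrenergic markers summed to 38958 in Differentiation against 54394 in Nondifferentiation. Their part in the differences of the members was not tested.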

How the data were processed

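RNA of 5 SH-SY5Y libraries, 1 per group, was profiled with a Lexogen QuantSeq kit from 500 ng of total RNA, per the labels' protocols, which reads the 3' ends of polyadenylated RNA. Groups were taken from the sample titles. The deposited values are log2 expression values. Each file has a highest value of 18.01 and an upper quartile of 8.63 to 8.64, so the upper ends share 1 scale, and such scaling hides differences in total RNA. The lower ends differ, with 478 values below 0 in Differentiation and 0 in each other library, and with 9583 to 9932 values at 0. The submitters' processing notes list Bowtie2, edgeR and the hg19 build but not what each was used for, nor versions. No label states which counter, annotation or strand setting was used.

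Folds were differences of deposited values. Genes entered a comparison where either value reached the median of the nonzero values of that pair, and were counted at 2-fold. Reads were estimated from the slope of the 10th to 100th lowest distinct linear values, and values of exactly 0 are called listed at 0. The slope varied with the range used, so depths and counting SEs are approximate. With 1 library in each group no test was made. The members and lists were chosen with earlier results of these data known. All members are accounted for by role. Values in all 5 libraries are given for members past 2-fold in 1 of the 5 comparisons and for the highest and lowest of each role. The comparisons with exchanged references came from the alternatives tried, which were other floors, thresholds of 1.5-fold and 3-fold, a pseudocount of 16, centring and other reference libraries. Promoters are RefSeq sequences of GRCh38.p14. The work ran in Python 3.11.15 with pandas 2.3.3, numpy 2.4.6 and scipy 1.17.1, and figures were drawn with matplotlib 3.10.9. The calls were tried on simulated data with counting noise only, which cannot show how far cultures differ.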

Additional observations from a re-analysis of the deposited data

Results flagged for a closer look

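TM7SF2 lay on opposite sides of siControl in the 2 knockdown libraries, at -0.69 in siSTAU1 and 0.46 in siUPF1, and differed by 1.15 on the log2 scale between siUPF1 and siSTAU1. With 1 library each this difference was not tested.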

How the results depend on the processing

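With other references the median of the members was -0.49 in Differentiation, -0.25 in siSTAU1 and -0.33 in siUPF1, and siUPF1 had 3 lower members. Without a floor, 2 members were higher in Differentiation, 1 was higher in siUPF1 against siControl, and 2 were higher and 1 lower in siUPF1 against siSTAU1, the additions being genes of few reads. At 1.5-fold 22 members were lower in Differentiation, 1 in siSTAU1, 1 in siUPF1 and 4 in siControl against Nondifferentiation, and 2 were higher in siUPF1 against siSTAU1. At 3-fold these were 1 lower in Differentiation and 0 higher in siUPF1 against siSTAU1. Leaving out members whose end overlaps another gene, an alternative chosen after seeing the data, left 5 lower in Differentiation, from fewer members. None of the 5 was a mevalonate gene. The pseudocount, the centring and the floor on the mean gave 8, 11 and 8 lower members in Differentiation and turned no direction. No paired analysis was possible because each group had 1 library. Counting error does not cover differences between cultures.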

Other observations

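STARD4-AS1, a noncoding RNA that overlaps STARD4 on the other strand away from its end and was picked after its value was seen, had 10.31 in Differentiation against 8.67 in Nondifferentiation, a log2 fold of 1.64, while STARD4 had 0.01. FEN1, a replication nuclease that overlaps FADS2 in the annotation, had 9.72 in Differentiation against 11.57 in Nondifferentiation, a log2 fold of -1.85, where FADS2 had -0.39.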
